A study of Homo sapiens with 4 samples.

Results

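The genes described here are 10 genes of de novo ceramide synthesis: the serine palmitoyltransferase (SPT) subunits SPTLC1, SPTLC2, SPTLC3 and SPTSSA, the SPT regulators ORMDL1 and ORMDL3, the ceramide synthases CERS2, CERS5 and CERS6, and the desaturase DEGS1. They are 10 of 35584 genes in the deposited tables, were listed by name, and all 10 passed the filter on low counts that left 15377 genes. The members were chosen by their pathway and with the S1KO against WT fold changes of these libraries known, so the genotype difference of each of the 10 genes is given as a description. Where a fit over all genes called one of the 10, the call is stated for completeness and is not evidence of a difference. The cells were iMGL, microglia-like cells differentiated from WTC11, a human induced pluripotent stem cell line. The S1KO group (2 libraries, S1KO 1 and S1KO 2) came from lines edited to lack SHIP1, the inositol phosphatase encoded by INPP5D, and the WT group (2 libraries, WT 1 and WT 2) from control lines of the same background; how the lines were edited is not stated in the labels. The design states 2 clones per genotype, but the labels do not tie a library to a clone, and nothing says that the libraries came from separate differentiations. P-values therefore measure only the spread between these 4 libraries.

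SPT joins serine to palmitoyl-CoA in the endoplasmic reticulum and commits the cell to making sphingolipids. Its catalytic core is SPTLC1 paired with either SPTLC2 or SPTLC3, a small subunit raises its activity, and ORMDL proteins hold it back when ceramide is plentiful. Ceramide synthases then attach a fatty acyl chain whose length depends on the synthase, and DEGS1 adds the double bond that turns dihydroceramide into ceramide, the backbone of the sphingomyelin and glycosphingolipids of membranes and myelin.

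INPP5D, the gene targeted in S1KO cells, had 81.0 and 97.6 CPM (counts relative to library size, scaled by edgeR's TMM method) in S1KO 1 and S1KO 2, against 356 and 441 CPM in WT 1 and WT 2. It fell in S1KO cells (log2 fold change -2.16, SE 0.21, adjusted p = 0.0183 by edgeR's quasi-likelihood test with Benjamini-Hochberg adjustment). Library totals were 21516813 to 25927881 estimated counts. Mitochondrially encoded mRNAs took 52.3% and 39.2% of the counts in S1KO 1 and S1KO 2, against 14.2% and 18.9% in WT 1 and WT 2, which left 10792943 and 13471665 counts for all other genes in S1KO cells, against 18323018 and 20861745 in WT cells. The 12 microglia and myeloid markers summed to 2660 and 2697 CPM in S1KO libraries, against 3607 and 4163 CPM in WT libraries, and none was at 0 in any library. The 10 mesenchymal markers summed to 10.6 and 22.2 CPM in S1KO libraries and to 4.34 CPM in WT 2, but to 3415 CPM in WT 1. No mesenchymal marker was at 0 in WT 1, and COL1A1 alone gave 2709 CPM there. The 5 pluripotency markers summed to 14.5 and 15 CPM in S1KO libraries, against 5.66 and 7.06 CPM in WT libraries. The 5 neuronal markers summed to 5.24 and 3.93 CPM in S1KO libraries, against 12.4 and 7 CPM in WT libraries. The 5 endothelial markers summed to 107 and 122 CPM in S1KO libraries, against 116 and 140 CPM in WT libraries. Nearly all of the endothelial sums was PECAM1, with 106 and 121 CPM in S1KO libraries, against 114 and 140 CPM in WT libraries.

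Of the 10 genes, 7 (SPTLC1, SPTLC2, ORMDL1, ORMDL3, CERS2, CERS6 and DEGS1) had both S1KO values below both WT values, SPTLC3 had both above, and SPTSSA and CERS5 overlapped between the groups. Among all 15377 genes tested, 25.8% had both S1KO values below and 26% had both above. SPTLC3 was the only one of the 10 called by edgeR's quasi-likelihood test at an adjusted p of 0.05; the test called 0.936% of all genes, 0.787% as higher and 0.15% as lower in S1KO cells. DESeq2, which called 7.83% of genes, also called SPTLC1, CERS2 and DEGS1, all lower in S1KO cells. Since the genes were listed from this contrast, nothing is read from these counts. The median log2 fold change was -0.59 over the 10 genes and -0.02 over all genes tested.

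**Figure D1:**
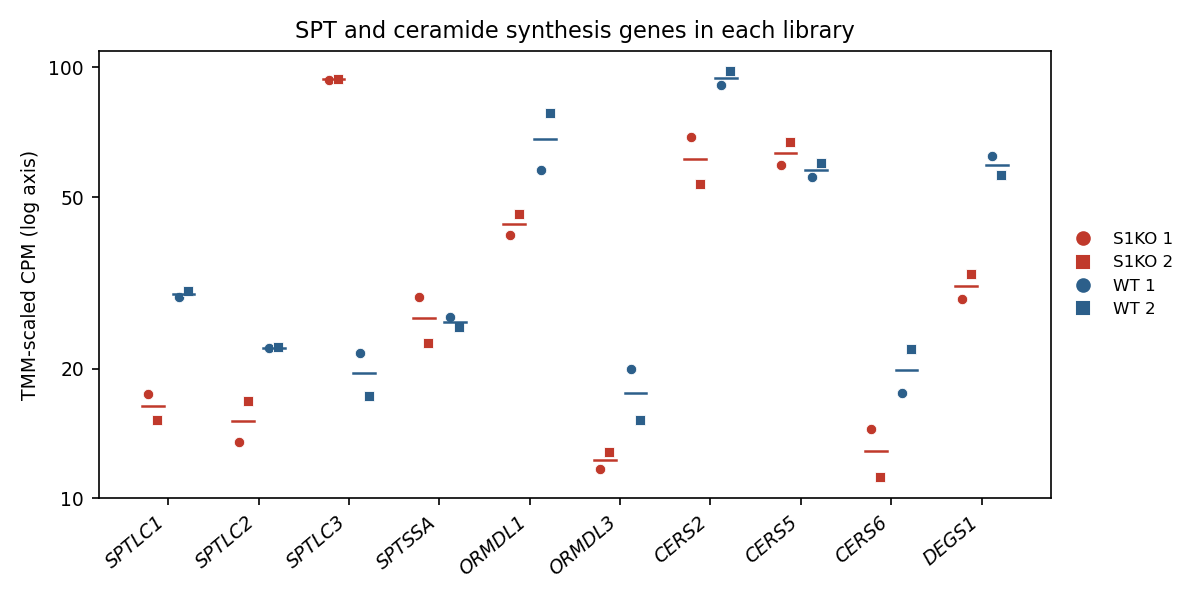
TMM-scaled CPM (vertical log axis) of the 10 genes in each library, with S1KO in red to the left of WT in blue, circles for replicate 1, squares for replicate 2 and a line at the group mean. SPTLC3 lay at 93.5 and 94.1 CPM in S1KO libraries, against 21.7 and 17.3 CPM in WT libraries, while the points of SPTSSA and CERS5 overlapped.

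SPTLC3 (chromosome 20, 13008979 to 13169103, plus strand, GRCh38) encodes the alternative catalytic subunit, which widens the range of acyl-CoAs that SPT accepts. The gene had 1388 and 2002 estimated counts in S1KO 1 and S1KO 2, against 606 and 541 in WT 1 and WT 2, equal to 93.5 and 94.1 CPM against 21.7 and 17.3 CPM. Both S1KO libraries were far above both WT libraries and close to each other. Its level averaged 93.8 ± 0.413 CPM in S1KO cells and 19.5 ± 3.10 CPM in WT cells (SD, n = 2 each), a 4.82-fold difference (log2 fold change 2.27, SE 0.19, 95% interval 1.82 to 2.72). The log2 fold change was 2.27 with mitochondrial genes left out and 2.44 without WT 1, the library with mesenchymal transcripts. SPTLC3 was called under 9 of 15 alternative settings. It was not called without S1KO 1 (2.26), without S1KO 2 (2.25) or with the replicate number as a block (2.28), 3 fits in which no gene of the whole table was called. Nor was it called on log2(TPM + 1) (1.26) or log2(TPM + 0.1) (1.32), fits that called 2892 and 2637 genes, or with only coding transcripts summed (0.73).

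Nearly all of the SPTLC3 signal was assigned to SPTLC3-205, a transcript annotated without a coding sequence. GENCODE 29 gives SPTLC3-205 as 2480 bases in 2 exons, at chr20:13008979-13051018. It shares 577 bases of exons 1 and 2 with the coding transcript SPTLC3-201, which has 12 exons. It then runs 1888 bases past the end of exon 2, whose last base in SPTLC3-201 is 13049130, into what is intron 2 of SPTLC3-201. The sequences at that point are shown because they are where the transcript that carried the counts leaves the one that encodes the enzyme. Lower case is the end of exon 2 (from 13049101) in both, and capitals are exon 3 of SPTLC3-201 in the first line and the intron, beginning with the GT of the splice donor, in the second (chr20:13049101-13049160, GRCh38, plus strand, GENCODE 29 transcripts).
SPTLC3-201: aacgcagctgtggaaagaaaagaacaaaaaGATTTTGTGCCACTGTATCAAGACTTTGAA
SPTLC3-205: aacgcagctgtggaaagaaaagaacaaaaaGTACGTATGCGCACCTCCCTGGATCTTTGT

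SPTLC3-205 was assigned 1375.3 and 1986.9 estimated counts in S1KO 1 and S1KO 2, against 596.1 and 524.2 in WT 1 and WT 2. These were 99.1% and 99.2% of the gene's counts in S1KO libraries, against 98.4% and 96.9% in WT libraries. Of SPTLC3 TPM (the deposited level per length), SPTLC3-205 held 99.7% in each S1KO library, against 99.4% and 98.8% in WT libraries, a difference of 0.59 percentage points. The difference was 0.29 points without WT 2 and 0.88 points without WT 1. The coding transcripts held the remainder, 0.335% and 0.288% of SPTLC3 TPM in S1KO libraries, against 0.603% and 1.19% in WT libraries, so the coding share was lower in both S1KO libraries. These shares rest on few counts.

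The coding transcript SPTLC3-201 was at a very low level in both genotypes. It was assigned 12.3 and 15.3 estimated counts in S1KO 1 and S1KO 2, against 9.7 and 16.8 in WT 1 and WT 2. Its TPM was 0.077 and 0.109 in S1KO libraries, against 0.084 and 0.119 in WT libraries, so the groups overlapped. On the CPM scale, which allows for the smaller share of counts outside the mitochondrial mRNAs in S1KO cells, it had 0.827 and 0.717 CPM against 0.345 and 0.537 CPM, without overlap. With only coding transcripts summed, the log2 fold change of SPTLC3 was 0.73 and the gene was not called. How kallisto divides reads between the transcripts rests on the 5592 bases of SPTLC3-201 beyond exon 2 and on the intron sequence of SPTLC3-205. The shared exons do not tell the transcripts apart. Of the stretches of 31 bases in SPTLC3-201, 125 (2.04%) also occur in transcripts of 3892 other genes. The part of such sequence in its few counts was not tested.

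**Figure D2:**
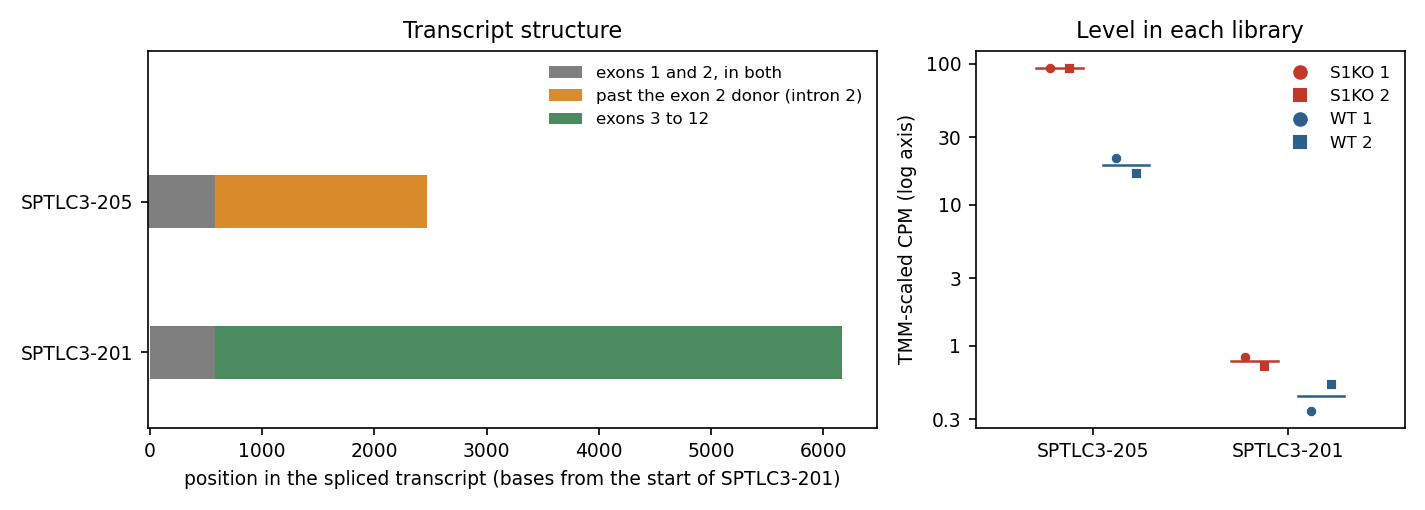
Left, the annotated structure of SPTLC3-205 and SPTLC3-201 as spliced length in bases, with shared exons in grey, the stretch past the exon 2 donor in orange and the later exons in green. Right, TMM-scaled CPM (log axis) of each transcript by library with a line at the group mean: SPTLC3-205 had 92.7 and 93.4 CPM in S1KO libraries, against 21.3 and 16.7 CPM in WT libraries, and SPTLC3-201 stayed below 1 CPM in all 4.

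SPTLC3-205 holds sequence that recurs in other genes, as do the main transcripts of SPTLC1, SPTLC2, SPTSSA, CERS2, CERS6 and DEGS1. Of its 2450 words of 31 bases (the word length, k, that kallisto uses by default), 78 (3.18%) also occur in transcripts of 10 other genes, all 78 in the part past the end of exon 2. A read pair that holds only such words can be assigned to more than 1 gene. The reads were pairs of 150 bp. A full read copied without error from SPTLC3-205 holds more than 78 words, so it also holds words that are not shared. How many reads from other sequence held only such words was not tested. Stretches that recur in unrelated genes in either orientation are typical of interspersed repeats. No repeat annotation was used here, and the part of such sequence in the SPTLC3 counts was not tested. The 10 genes that share these words were found by sequence, after the SPTLC3 values had been seen. Of the 8 that were tested, 6 had both S1KO values above both WT values, against 26% of all genes, and 5 rose by edgeR's quasi-likelihood test (adjusted p under 0.05), against 0.787% of all genes. Their median log2 fold change was 1.31, against -0.02 over all genes. Among the tested genes, ATP23 shares 33 of the words, C12orf65 29 and ATF7IP2 6. FAM92B, MIPOL1 and OR1D2 share 3 each, and FBXO15 and AC104389.4 share 2 each. Whether reads were divided among these genes and SPTLC3 was not tested, so the genes are not taken as independent observations.

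FAM92B had 19.9 and 25.2 CPM in S1KO 1 and S1KO 2, against 2.57 and 2.20 CPM in WT 1 and WT 2 (log2 fold change 3.24, SE 0.26, edgeR adjusted p = 0.0172). ATP23, which shares the most words with SPTLC3-205 (33), had 48.3 and 43.1 CPM in S1KO libraries, against 12.3 and 10.3 CPM in WT libraries (2.01, SE 0.20, edgeR adjusted p = 0.0183). In both genes the S1KO libraries were well above the WT libraries and the libraries of a group lay close together. MIPOL1 (2.13), FBXO15 (1.45) and C12orf65 (1.18) also rose, at edgeR adjusted p = 0.0183, 0.0307 and 0.0405. OR1D2 had a log2 fold change of 1.17 (adjusted p = 0.0656), ATF7IP2 of -0.25 (adjusted p = 0.592) and AC104389.4 of -0.07 (adjusted p = 0.95), none of them past the threshold.

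In 5 of the 8 tested genes most counts sat on transcripts that hold the shared words. The processed transcript ATP23-205 carried 98.3% and 99% of ATP23 counts in S1KO libraries, against 90.6% and 93.6% in WT libraries. C12orf65-207 carried 77.1% and 77.8% of its gene's counts, against 56.1% and 62.6%. For FAM92B and FBXO15 the transcript with the shared words held at least 99.8% in every library. In OR1D2 such transcripts, OR1D2-202 and OR1D2-203, held all counts. MIPOL1 rose although its transcript with the shared words, MIPOL1-207, was assigned 0 counts in all 4 libraries. AC104389.4-202 was likewise at 0, and no word-holding transcript of ATF7IP2 held more than 3.11% of that gene's counts in any library.

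**Figure D3:**
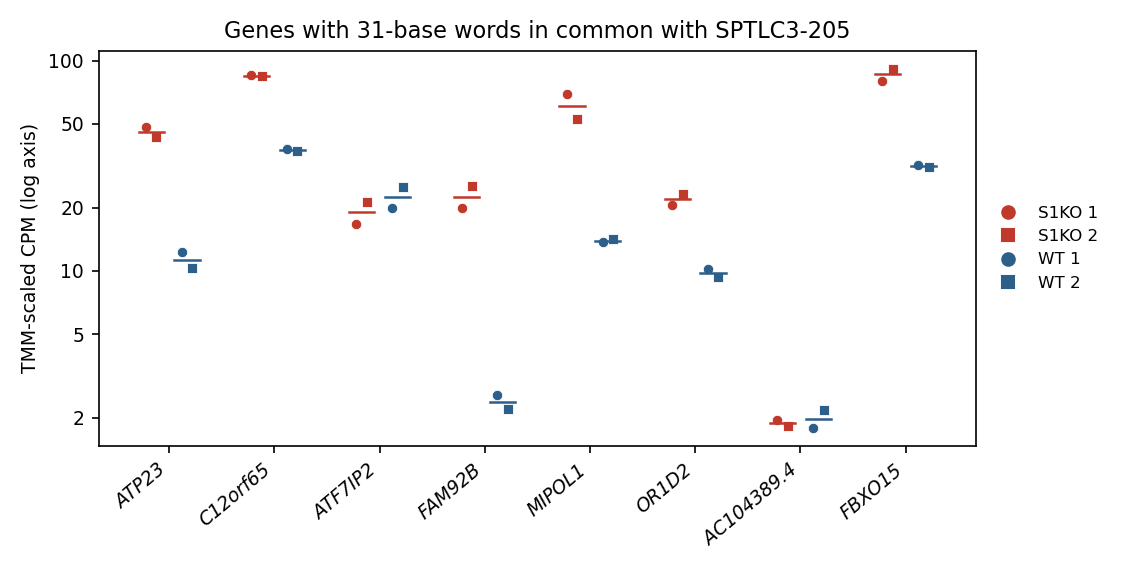
TMM-scaled CPM (vertical log axis) of the 8 tested genes whose transcripts share 31-base words with SPTLC3-205, S1KO in red to the left of WT in blue, 1 point per library and a line at the group mean. In 6 genes both S1KO points lie above both WT points, with FAM92B at 19.9 and 25.2 CPM in S1KO libraries, against 2.57 and 2.20 CPM in WT libraries; ATF7IP2 and AC104389.4 overlap.

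SPTLC1, the subunit that every SPT complex contains, was lower in S1KO cells. It had 17.5 and 15.2 CPM in S1KO 1 and S1KO 2, against 29.4 and 30.3 CPM in WT 1 and WT 2. The groups were well apart and the libraries of each group close together. The S1KO mean of 16.4 ± 1.62 CPM was 54.8% of the WT mean of 29.9 ± 0.622 CPM by the fitted fold (SD, n = 2 each), a log2 fold change of -0.87 with SE 0.19. In bulk RNA, fewer cells that express a gene and less of its RNA per cell cannot be told apart, here or for any gene below. Coding transcripts held 77.8% and 72.9% of SPTLC1 counts in S1KO libraries, against 84.8% and 73.4% in WT libraries, and the log2 fold change was -0.94 with only these summed. The main coding transcript shares 201 words of 31 bases with 8 other genes, 5 of them named as SPTLC1 pseudogenes, none of which passed the filter on low counts.

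SPTLC2, the catalytic subunit of the common form of SPT, had 13.5 and 16.8 CPM in S1KO 1 and S1KO 2, against 22.3 and 22.4 CPM in WT 1 and WT 2. Both S1KO libraries were lower, with the S1KO pair further apart than the WT pair (log2 fold change -0.56, SE 0.21). It was the least expressed catalytic subunit by length-scaled level once SPTLC3-205 was included: TPM was 1.72 and 2.00 for SPTLC2 in S1KO libraries, against 5.98 and 8.30 in WT libraries, and 23.0 and 37.8 for SPTLC3 in S1KO libraries, against 13.9 and 9.93 in WT libraries. SPTLC3 thus took 93% and 95% of the TPM of SPTLC2 and SPTLC3 together in S1KO libraries, against 70% and 54.5% in WT libraries, a difference of 31.77 percentage points between the group means. With only coding transcripts counted, the same share was 6.48% and 5.16% in S1KO libraries, against 1.61% and 2.70% in WT libraries, a difference of 3.67 points. By coding transcripts SPTLC2 held the larger share in all 4 libraries. The WT 2 value of SPTLC2 includes 4.04 TPM from 22.8 estimated counts on SPTLC2-205, a short transcript annotated for nonsense-mediated decay. In the main SPTLC2 transcript, SPTLC2-201, 3.49% of the words of 31 bases also occur in 2256 other genes.

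SPTSSA, the small subunit that raises SPT activity, did not separate the genotypes. It had 29.4 and 22.9 CPM in S1KO 1 and S1KO 2, against 26.3 and 25 CPM in WT 1 and WT 2, so both WT values lay between the S1KO values. Its log2 fold change of 0.03 (SE 0.20, 95% interval -0.45 to 0.51) leaves differences of either sign possible, and its sign turned under 5 of the 15 alternative settings. SPTSSA has a single annotated transcript, so no division between isoforms enters its value. Of the words of 31 bases in that transcript, 140 (5.1%) also occur in 399 other genes.

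ORMDL1 and ORMDL3 are membrane proteins of the endoplasmic reticulum that bind SPT and inhibit it when ceramide accumulates. ORMDL1 had 40.8 and 45.8 CPM in S1KO 1 and S1KO 2, against 57.8 and 78.6 CPM in WT 1 and WT 2 (log2 fold change -0.65, SE 0.20). ORMDL3 had 11.7 and 12.8 CPM in S1KO libraries, against 20 and 15.2 CPM in WT libraries (-0.52, SE 0.23). For both genes the S1KO libraries were lower and close together while the WT libraries lay apart, with WT 2 the higher for ORMDL1 and WT 1 for ORMDL3. Without the higher WT library the value was -0.41 for ORMDL1 (without WT 2) and -0.31 for ORMDL3 (without WT 1). The 95% interval of ORMDL3 ran from -1.08 to 0.04. No word of 31 bases of the main transcript of either gene was shared with another gene.

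CERS2, the ceramide synthase for very-long-chain acyl groups, had 68.9 and 53.5 CPM in S1KO 1 and S1KO 2, against 90.9 and 98.1 CPM in WT 1 and WT 2. Both S1KO libraries were lower, and the fitted fold put S1KO cells at 64.8% of WT cells (log2 fold change -0.63, SE 0.18). The transcripts behind this sum did not move together. CERS2-213, a 6-exon model that begins inside the gene, had 15.6 and 34.2 CPM in S1KO libraries, against 61.0 and 78.1 CPM in WT libraries. CERS2-205, the 11-exon full-length model, had 48.1 and 17.0 CPM in S1KO libraries, against 23.9 and 14.8 CPM in WT libraries. S1KO 1 was thus high for the full-length model and the lowest library for the short one, while S1KO 2 held more of the short one, as both WT libraries did. The last 5 exons are common to both models, so the division between them is less certain than the gene's sum, and 695 words of 31 bases in them also occur on the opposite strand in the antisense gene AL590133.2, which was not analysed here. No source used here gives the strand of the libraries, so reads of CERS2 and of antisense RNA cannot be told apart.

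CERS5 and CERS6 attach palmitoyl and other long-chain acyl groups. CERS5 had 59.4 and 67.1 CPM in S1KO 1 and S1KO 2, against 55.7 and 59.9 CPM in WT 1 and WT 2, so that S1KO 1 lay within the WT range (log2 fold change 0.13, SE 0.16, 95% interval -0.26 to 0.52). Coding transcripts held 67.8% and 65.3% of CERS5 counts in S1KO libraries, against 50.8% and 52.7% in WT libraries. The share was higher in both S1KO libraries, and with coding transcripts alone the log2 fold change was 0.49. The S1KO libraries differed in which coding transcript was high. CERS5-201 had 18.3 and 10.4 CPM in S1KO 1 and S1KO 2, against 12.7 and 12.8 CPM in WT libraries. CERS5-223 had 9.78 and 21.5 CPM in S1KO 1 and S1KO 2, against 10.2 and 14.1 CPM in WT libraries. CERS5 has 28 annotated transcripts, 6 of them coding, many short or with a retained intron.

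CERS6 had 14.5 and 11.2 CPM in S1KO 1 and S1KO 2, against 17.6 and 22.2 CPM in WT 1 and WT 2. Both S1KO libraries were lower (log2 fold change -0.63, SE 0.24), and the value ran from -0.45 without WT 2 to -0.84 without S1KO 1. Its 2 coding transcripts were divided differently in 1 library. CERS6-201 took 8.87% and 56.1% of CERS6 counts in S1KO 1 and S1KO 2, against 58.0% and 57.6% in WT 1 and WT 2, and CERS6-202 held the rest. S1KO 1 stood apart from the other 3 libraries, and the S1KO libraries differed from each other more than S1KO 2 differed from WT. An antisense gene, CERS6-AS1, shares 2973 words of 31 bases with the last part of CERS6-201 on the opposite strand and was not analysed here.

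DEGS1, the last enzyme of the pathway, was lower in S1KO cells by about as much as SPTLC1, and which of these had the lower value turned with the library left out. It had 29 and 33.2 CPM in S1KO 1 and S1KO 2, against 62.4 and 56.3 CPM in WT 1 and WT 2. The groups were far apart relative to the distance between libraries of a group, and the S1KO mean of 31.1 ± 2.93 CPM was 52.5% of the WT mean of 59.3 ± 4.28 CPM by the fitted fold (SD, n = 2 each; log2 fold change -0.93, SE 0.17, 95% interval -1.35 to -0.51). The value ran from -0.85 to -1.05 with each library left out in turn. Coding transcripts held at least 98.7% of DEGS1 counts in every library. In the main DEGS1 transcript, DEGS1-201, 7.68% of the words of 31 bases also occur in 1633 other genes.

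The order of the 10 genes by level per length differed between the genotypes. With TPM rescaled to exclude mitochondrial genes, CERS5 was at the top in S1KO libraries with 92.5 and 147 TPM, against 111 and 126 TPM in WT libraries. SPTLC3 came next in S1KO libraries, at 69.8 and 84.3 TPM, against 18.6 and 14.4 TPM in WT libraries, where CERS2, CERS5, ORMDL1, DEGS1, SPTLC1 and SPTSSA were all above it and ORMDL3 overlapped it. In S1KO libraries SPTLC3 overlapped ORMDL1 and lay above the other genes apart from CERS5. SPTLC3-205, annotated without a coding sequence, held 99.7% of SPTLC3 TPM in each S1KO library. The place of SPTLC3 in this order is therefore not that of its coding RNA. CERS2, with 62.6 and 67.8 TPM in S1KO libraries and 118 and 128 TPM in WT libraries, and ORMDL1, with 51.3 and 75.0 TPM in S1KO libraries and 94.5 and 127 TPM in WT libraries, overlapped each other within each genotype. At the low end stood SPTLC2, with 5.24 and 4.46 TPM in S1KO libraries and 7.99 and 12 TPM in WT libraries, and CERS6, with 3.67 and 3.31 TPM in S1KO libraries and 5 and 6.19 TPM in WT libraries.

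The deposited TPM values need care because the mitochondrial mRNAs enter their total. On log2(TPM + 1) the median log2 fold change of all genes tested was -0.78, and 71% of genes had both S1KO values below both WT values. On that scale 9 of the 10 genes were lower in both S1KO libraries, SPTSSA (-0.86) and CERS5 (-0.91) among them, and SPTLC3 was at 1.26. After rescaling without mitochondrial genes the median of all genes was -0.08, 27.8% of genes were lower in both S1KO libraries, and 7 of the 10 were, with SPTLC3 higher and SPTSSA and CERS5 overlapping, as by CPM. The directions of the other 8 genes were the same under all 15 alternatives.

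**Figure D4:**
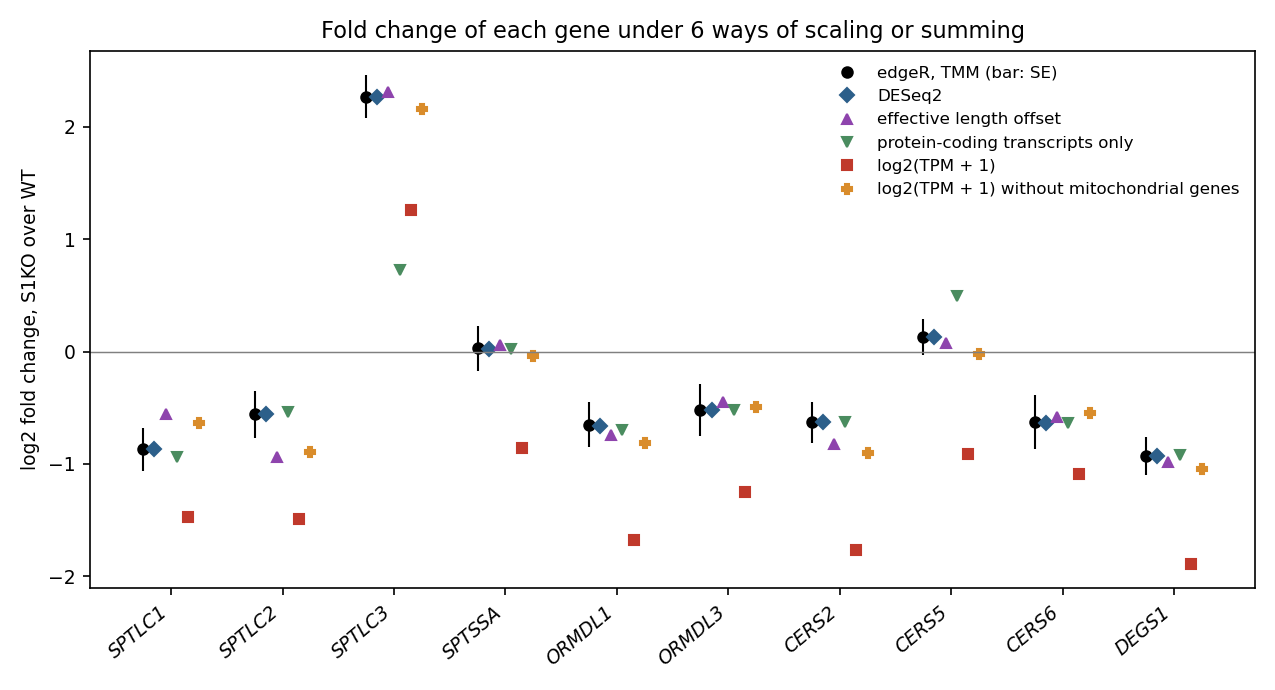
Log2 fold change (S1KO over WT, vertical axis) of the 10 genes under 6 ways of scaling the values or summing the transcripts, with the SE as a bar on the edgeR value. The red squares, log2(TPM + 1) with mitochondrial genes in the total, lie below the other markers for 9 genes, and SPTLC3 is at 0.73 when coding transcripts alone are summed.

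Of the other 79 genes of 6 sphingolipid lists, 68 were tested and 0 were called by edgeR's quasi-likelihood test (adjusted p under 0.05), against 0.936% of all genes. At an unadjusted p under 0.05 there were 18 of the 68, against 2993 of all 15377 genes, and DESeq2 called 1 as higher (SPHK1) and 6 as lower in S1KO cells (ORMDL2, NEU1, SPNS2, ELOVL5, TECR and SLC1A5), where it called 4.42% and 3.42% of all genes. Without WT 1 edgeR called 12 of the listed genes and 2016 of all 16066, and without WT 2 it called 13 and 2151 of all 16228. In all, 47 of the 68 had a negative log2 fold change, with a median of -0.23 against -0.02 over all genes. The S1KO values lay below the WT values in 29 of the 68 and above them in 11, without overlap, against 25.8% and 26% of all genes. The 10 genes above had a median of -0.59.

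Among 5 tested genes of the other de novo steps, 4 had a negative value (median -0.24). ORMDL2, the remaining member of the ORMDL family, had 11.7 and 12.8 CPM in S1KO 1 and S1KO 2, against 22.4 and 27.0 CPM in WT 1 and WT 2, which put both S1KO libraries well below WT (log2 fold change -1.01, SE 0.21, edgeR adjusted p = 0.0877). KDSR, the reductase that acts straight after SPT, had 18.2 and 21.0 CPM in S1KO libraries, against 24.5 and 22.1 CPM in WT libraries (-0.25, SE 0.19, edgeR adjusted p = 0.533). The S1KO libraries were lower for KDSR too, but S1KO 2 came close to WT 2.

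For the 10 tested genes of acyl-CoA elongation, which makes the acyl chains that ceramide synthases use, the median was -0.51, 8 values were negative, and 6 genes had both S1KO values below both WT values. TECR, the reductase that completes each elongation cycle, had 56.5 and 62.9 CPM in S1KO libraries, against 112 and 110 CPM in WT libraries (-0.89, SE 0.16, edgeR adjusted p = 0.0619). ELOVL5, an elongase of polyunsaturated chains, had 43.0 and 34.8 CPM, against 72.6 and 63.2 CPM (-0.81, SE 0.19, edgeR adjusted p = 0.101). Neither group overlapped the other in these genes, and neither gene passed the threshold.

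Serine supply gave 6 negative values of 7, with a median of -0.26 that became 0.24 without WT 1, where 5 of the 7 values were positive (PHGDH, PSAT1, PSPH, SHMT1 and SHMT2). SLC1A5, a transporter of neutral amino acids, had 40.8 and 41.2 CPM in S1KO libraries, against 77.0 and 80.4 CPM in WT libraries (-0.94, SE 0.16, edgeR adjusted p = 0.0595). Its libraries agreed closely within each genotype. PSAT1, an enzyme of serine synthesis, had 1.55 and 2.07 CPM in S1KO libraries, against 43.9 CPM in WT 1 and 0.862 CPM in WT 2, so the fitted -3.61 (SE 1.48, edgeR adjusted p = 0.253) rested on WT 1 and became 1.07 without it. WT 1 is also the library in which the mesenchymal markers summed to 3415 CPM; their part in the PSAT1 value was not tested.

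Ceramide use, with 12 tested genes, had a median of -0.11 and 7 negative values. UGCG, which makes glucosylceramide, had 25.3 and 30.6 CPM in S1KO libraries, against 39.9 and 43.2 CPM in WT libraries (-0.57, SE 0.18, edgeR adjusted p = 0.176). SAMD8, which makes the sphingomyelin analogue ceramide phosphoethanolamine, had 15.6 and 14.7 CPM, against 18.6 and 26.6 CPM (-0.58, SE 0.24, edgeR adjusted p = 0.255). For both genes the S1KO libraries were the lower ones.

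Sphingolipid breakdown, with 19 tested genes, had a median of -0.15 and 13 negative values. NEU1, a lysosomal sialidase, had 45.3 and 51.9 CPM in S1KO libraries, against 75.8 and 74.6 CPM in WT libraries (-0.63, SE 0.16, edgeR adjusted p = 0.122). HEXA, the alpha subunit of a lysosomal hexosaminidase that degrades gangliosides, had 124 and 142 CPM, against 169 and 213 CPM (-0.52, SE 0.19, edgeR adjusted p = 0.209). Both were lower in both S1KO libraries without passing the threshold.

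Sphingosine 1-phosphate genes went both ways, with a median of -0.04 over 15 tested genes (0.05 without WT 2) and 9 negative values. SPNS2, which exports sphingosine 1-phosphate, had 6.13 and 7.24 CPM in S1KO libraries, against 13.6 and 12.9 CPM in WT libraries (-0.98, SE 0.24, edgeR adjusted p = 0.111). SPHK1, the kinase that makes it, had 12.5 and 11.4 CPM, against 6.51 and 4.82 CPM (1.08, SE 0.28, edgeR adjusted p = 0.121). The exporter was lower and the kinase higher in both S1KO libraries.

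The 3 genes of these lists whose pattern over the 4 libraries lay nearest to SPTLC3 were from the sphingosine 1-phosphate list, and the next, ASAH2 (distance 1.86), was from the breakdown list. By Euclidean distance of centred log2 CPM they were SPHK1 (1.23), PLPP2, a lipid phosphate phosphatase (1.41), and S1PR1, a receptor for sphingosine 1-phosphate (1.78). Since SPTLC3 is high in S1KO libraries, genes near it by this distance are high there by selection, and their values are a description. PLPP2 had 7.48 and 9.26 CPM in S1KO libraries, against 3.15 and 4.85 CPM in WT libraries (1.06, SE 0.35, edgeR adjusted p = 0.181). S1PR1 was at 0.741 and 0.564 CPM, against 0.322 and 0.319 CPM, a level at which few reads set the value.

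**Figure D5:**
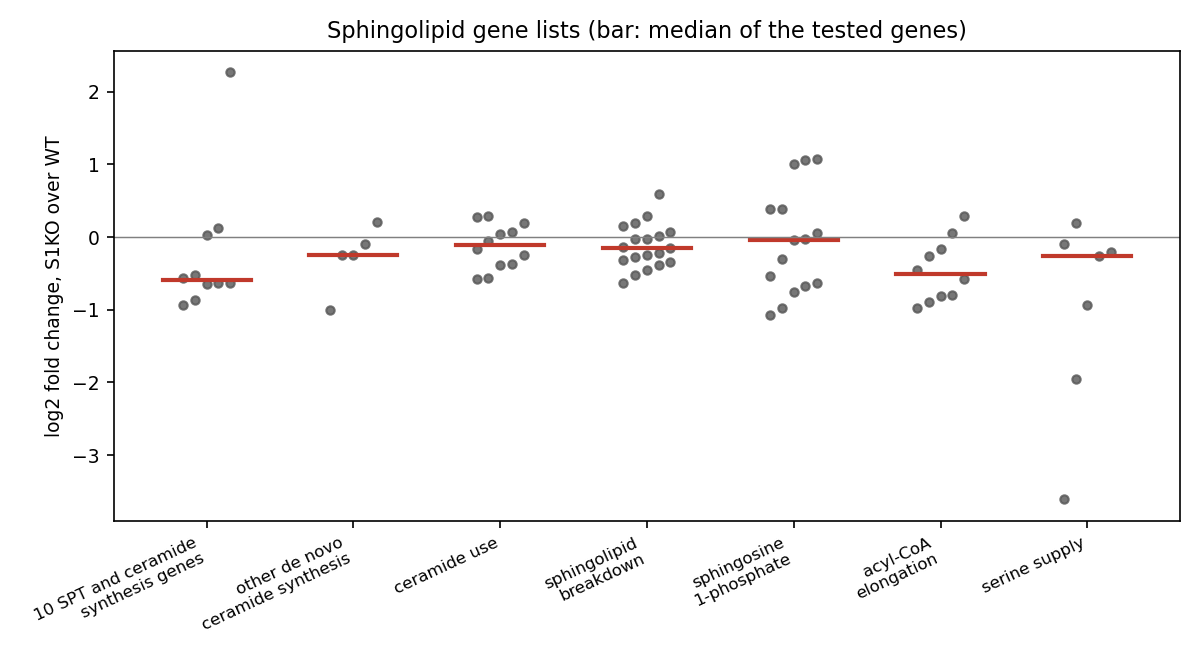
Log2 fold change (S1KO over WT, vertical axis) of each tested gene of the 10-gene set and of the 6 other sphingolipid lists, with a red bar at the median of each. The median is -0.59 for the 10 genes, -0.51 for acyl-CoA elongation and between -0.26 and -0.04 for the other lists; the single high point in the first column is SPTLC3 at 2.27.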

How the data were processed

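Poly-A RNA of 4 libraries was sequenced as paired reads of 150 bp, per the labels' protocols, and the submitters' processing notes name kallisto and hg38; no source used here gives the version, the transcript set or the strand. The authors deposited, per the file headers, an estimated count and a TPM for each of 188753 transcripts in each library. The total behind each TPM includes mitochondrial transcripts.

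Transcripts were summed to 35584 genes with GENCODE 29, 169797 by identifier and 15521 by symbol; 3435 matched no gene and were not used (0.323% to 0.643% of counts). Estimated counts were rounded after summing. Genes kept by filterByExpr (15377) were scaled by TMM (factors 0.654 and 0.957 in S1KO 1 and S1KO 2, 1.313 and 1.217 in WT 1 and WT 2) and tested with edgeR 4.0.16 in R 4.3.3 (quasi-likelihood test, two-sided, genotype only, Benjamini-Hochberg adjustment over all genes). The common biological coefficient of variation was 0.29, and total degrees of freedom reached 6.41 at most. DESeq2 1.42.0 and limma 3.58.1 served as alternatives. SE and 95% intervals are on the log2 scale. With 2 libraries against 2, a permutation of single values cannot go below p = 0.33, so shares were not tested. Words of 31 bases were compared between GENCODE 29 transcripts on both strands; the shared stretch itself is not reported here. The procedure was tested on simulated data.

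The 10 genes, the 6 other pathway lists and the marker lists were chosen with earlier results of these data known. Genes named were the 10, INPP5D, listed genes past the threshold or otherwise the 2 of smallest p per list, and the 3 nearest to SPTLC3; genes sharing sequence with SPTLC3-205 are named as well.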

Additional observations from a re-analysis of the deposited data

How the results depend on the processing

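The number of genes called was 144 (121 higher and 23 lower in S1KO cells) and was 1158 with DESeq2, 1361 with no filter, 223 with a stricter filter, 21 with coding transcripts only, 2892 with limma on log2(TPM + 1) and 2637 on log2(TPM + 0.1). With each library left out it ran from 0 (without S1KO 1 or S1KO 2, where 1174 and 1637 genes had an unadjusted p under 0.05) to 2151 (without WT 2; 2016 without WT 1). On log2(TPM + 1) the split was 133 higher and 2759 lower, with a median of -0.78 over all genes (-0.97 on log2(TPM + 0.1)), and without mitochondrial genes it was 161 higher and 20 lower. Of the 10 genes, 1 was called, against 4 with DESeq2, 5 on each TPM scale (SPTLC1, SPTLC2, ORMDL1, CERS2 and DEGS1, not SPTLC3), 3 with no filter, 0 with coding transcripts only, and 0 to 6 with a library left out. Of the other sphingolipid genes 0 were called, against 7 with DESeq2, 7 with no filter, 1 with a stricter filter, 20 on each TPM scale, and 0 to 13 with a library left out.

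With the replicate number as a block, 0 genes and 0 of the 10 were called (2892 genes at an unadjusted p under 0.05). The deviations of same-numbered libraries from their group means correlated at 0.02. With 2 libraries per group this cannot decide whether same-numbered libraries were paired, and the labels do not say. The SPTLC3 share of 31.77 points was 3.67 with coding transcripts only, and the leading transcript's difference of 0.59 points was 1.53 in estimated counts and 0.00 with coding transcripts only, where SPTLC3-201 leads.

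Among the genes the naming rule gives, the log2 fold changes of SPTSSA, CERS5, SPHK1, PLPP2 and PSAT1 turned sign. SPTSSA was at -0.94 on log2(TPM + 0.1), -0.86 on log2(TPM + 1) and -0.04 on log2(TPM + 1) without mitochondrial genes. It was at -0.00 without WT 2, and ran from -0.17 to 0.18 over the 4 fits with a library left out. CERS5 was at -0.92, -0.91 and -0.02 on the same 3 scales. On log2(TPM + 0.1) and log2(TPM + 1), SPHK1 was at -0.16 and -0.13 and PLPP2 at -0.41 and -0.24. PSAT1 was at 1.07 without WT 1 and -4.57 without WT 2. The median over all genes was also lower on log2(TPM + 0.1) and log2(TPM + 1), at -0.97 and -0.78. The cause of the sign changes was not tested. Depth limits the values of SPTLC3-201 and S1PR1, which rest on few counts.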
